A study of Saccharomyces cerevisiae with 9 samples.

Results

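The region described is ETS 2, the 3′ external transcribed spacer of the 35S ribosomal RNA (rRNA) gene of budding yeast, Saccharomyces cerevisiae. Its members are the 211 single-nucleotide positions that the deposited tables annotate as ETS 2, numbered from 6648 to the last position of the gene, counted from its 5′ end; the tables hold 6647 further positions, annotated as the other regions. In genome build R64 the gene lies on the minus strand of chromosome XII, and ETS 2 covers chrXII:460712-460922, the 3′ end of the copy RDN37-2. The measurements were native elongating transcript sequencing (NET-seq), in which RNA polymerase I (Pol I) is pulled down by an antibody together with its bound RNA, and the 3′ end of each RNA is read as the place where a polymerase stood. There were 9 libraries, 3 each from WT (the control, labelled wild-type), rpa34△ and rpa49△ yeast. All were grown at 30 °C with no treatment. The sources used here give neither how the deletions were made nor whether the libraries of a strain came from separate cultures. The p-values therefore reflect the variation among these libraries, which may be technical. The tables hold the 35S gene alone, so the deleted genes could not be checked.

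Pol I transcribes past the 3′ end of 25S rRNA, the last mature rRNA in the precursor, and the extra RNA is the spacer. Rnt1, a yeast RNase III, cuts both strands of a stem-loop in that RNA, and the exonuclease Rat1 can then degrade the downstream RNA from its new 5′ end while Pol I is still transcribing. Most Pol I stops at the terminator T1, where a T-rich stretch of the coding strand lies just before a site bound by the Myb-like proteins Reb1 and Nsi1. The Pol I subunits Rpa49 and Rpa34 pair with each other and together resemble part of TFIIF, a general factor of Pol II. Both act in elongation, and Rpa49 carries an additional DNA-binding domain.

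The annotation divides ETS 2 into 7 stretches: 15 positions before the Rnt1 residues (6648 to 6662), 35 residues annotated as cleaved by Rnt1 (6663 to 6697), 41 positions on to T1 (6698 to 6738), T1 itself (6739), 17 positions on to the Reb1/Nsi1 site (6740 to 6756), the 11 positions of that site (6757 to 6767) and 91 positions beyond it (6768 to the last). The RNA is shown because most of the positions described lie in the predicted stem-loop around the Rnt1 residues or near T1. Letters are those of the deposited tables, 5′ to 3′, and capitals mark the Rnt1 residues in the first line and the Reb1/Nsi1 site in the second.
6648 to 6739 (chrXII:460831-460922, minus strand, R64): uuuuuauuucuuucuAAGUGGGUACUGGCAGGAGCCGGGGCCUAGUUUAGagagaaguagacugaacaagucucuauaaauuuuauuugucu
6740 to the last position (chrXII:460712-460830, minus strand, R64): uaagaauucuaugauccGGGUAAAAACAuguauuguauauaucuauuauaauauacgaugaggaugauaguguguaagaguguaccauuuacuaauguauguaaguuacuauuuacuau
Folding the first line at minimum free energy with RNAfold gave -33.3 kcal/mol and 28 base pairs. The main hairpin closed on the 4-nucleotide loop AGGA at 6677 to 6680, inside the Rnt1 residues; loops of the AGNN kind are the class that Rnt1 recognises. Its stem ran outwards past the annotated residues, pairing 6661 with 6697 and 6654 with 6704, up to the pair of 6652 with 6706. A smaller hairpin had its 5-nucleotide loop at 6711 to 6715. Such a fold is a prediction for free RNA and not a measurement. The 20 nucleotides ending at T1 held 12 U, a count reached by 1.579% of the 6839 windows of that length in the gene. The motif CGGGUAA, the coding-strand core of the known Reb1 site, occurred on this strand 3 times in the gene (at 1054 in 18S, 5488 in 25S and 6756 in ETS 2) and 0 times on the other strand.

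Values were in reads per 1000000 reads of the gene (RPM), deposited per library. They were whole multiples of 1 read, which gave 1242139 to 5353046 reads per library. ETS 2 itself held 25594 to 41463 reads per WT library, 13134 to 20168 in rpa34△ and 1819 to 2725 in rpa49△, so rpa49△ values rest on fewer reads. Positions 6648 and 6649 were 0 in every library, which leaves 209 with a read somewhere. Intervals given for shares of a library are 95% Clopper-Pearson intervals, which take in the error of counting reads and nothing else. RPM describes where reads lie along the gene and not how much RNA a cell makes, so a lower value in ETS 2 is a lower share of the gene's reads.

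In WT, Pol I reads piled up just before and inside the annotated Rnt1 residues and then thinned out stepwise. Position 6662, the last base before the annotated residues, was the highest of ETS 2 at 1167, 1709 and 1922 RPM in the 3 libraries, and its neighbour 6661 followed at 623, 1039 and 996 RPM. These 2 positions held 31.1% to 37.7% of all ETS 2 reads in WT. Whether 3′ ends of RNA cut by Rnt1 add to these 2 positions was not tested in any strain. The next highest positions were 6666 on the 5′ arm of the stem (379 ± 75.5 RPM, mean ± SD, n = 3) and 6680, the last base of the AGGA loop (235 ± 34.7 RPM). T1 was the seventh highest, with 174, 191 and 204 RPM. By T1 the reads were mostly spent: 90% of ETS 2 reads were reached at position 6745 in WT replicate 1, 6738 in replicate 2 and 6739 in replicate 3. The 119 positions past T1 held 8.46% ± 2.04 of ETS 2 reads. WT replicate 1 stood apart there, at 10.8% (interval 10.4% to 11.2%) against 7.07% and 7.52% in the other WT libraries. That library also had the lowest ETS 2 total, 5754 RPM against 7698 and 7746.

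**Figure D1:**
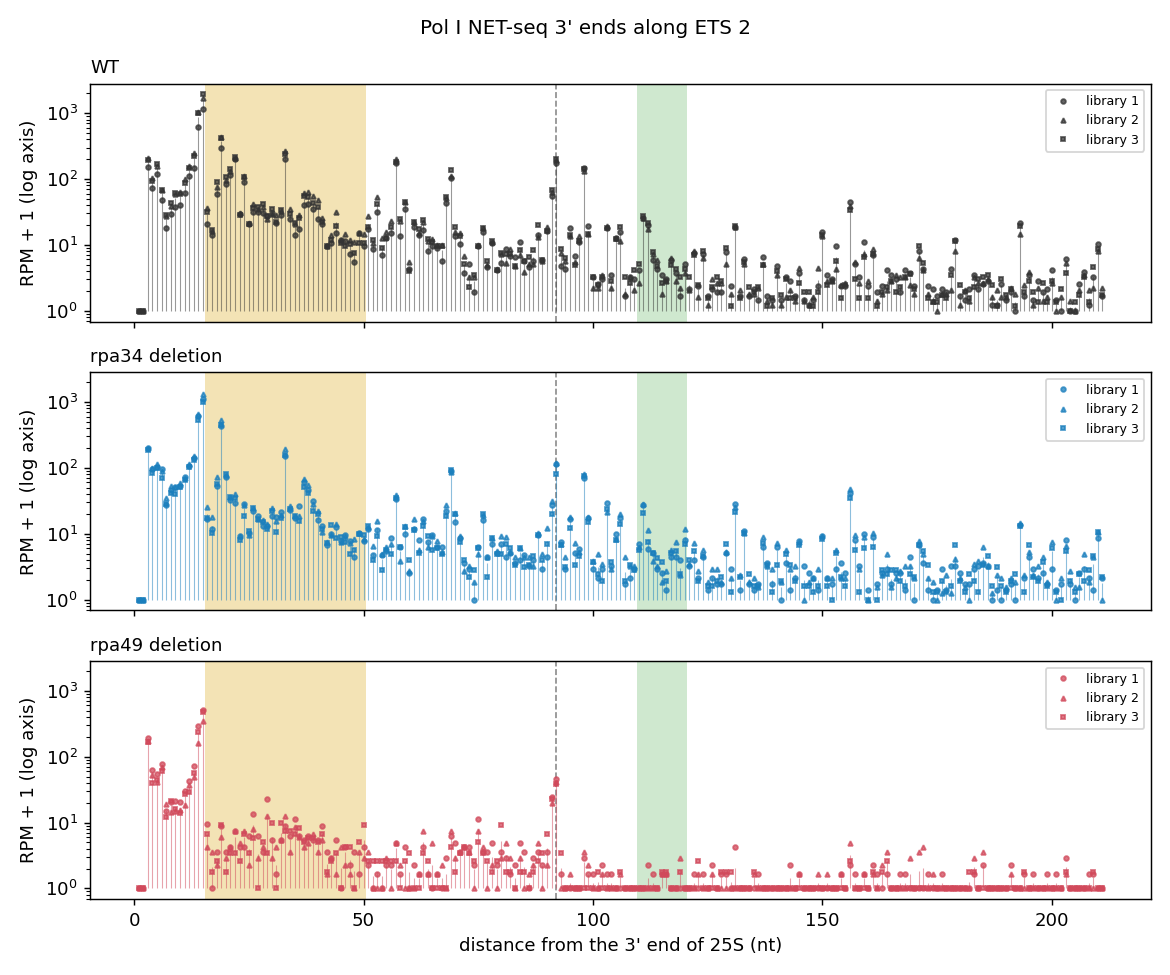
RPM + 1 on a log axis at each ETS 2 position, by distance from the 3′ end of 25S in nucleotides, with 1 panel per strain and 1 marker shape per library; stems reach the group mean, the ochre band marks the Rnt1 residues, the dashed line T1 and the green band the Reb1/Nsi1 site. The pile-up at 14 and 15 nucleotides stands in all 3 strains, whereas past T1 most rpa49△ positions sit at 0 reads.

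Both deletions had fewer ETS 2 reads, and the loss was unequal along the spacer. ETS 2 held 5754, 7698 and 7746 RPM in WT, 4947, 5641 and 4575 RPM in rpa34△ and 1761, 1304 and 1464 RPM in rpa49△. The 3 strains did not overlap, and the group means lay 1.40-fold below WT in rpa34△ and 4.68-fold below WT in rpa49△. In rpa34△ the reduction of the mean was greatest between the Rnt1 residues and T1, from 832 ± 87.7 to 401 ± 29.2 RPM (2.07-fold), and absent beyond the Reb1/Nsi1 site, at 259 ± 24.8 RPM in WT and 271 ± 32.7 in rpa34△, where the libraries overlapped. In rpa49△ the reduction was 2.96-fold before the Rnt1 residues, from 3557 ± 817 to 1202 ± 196 RPM. Inside the residues it was 13.3-fold, from 1905 ± 258 to 143 ± 22.8 RPM, and between them and T1 it was 8.96-fold. At T1 it was 4.64-fold, and between T1 and the Reb1/Nsi1 site it reached 46.4-fold, from 251 ± 13.2 to 5.41 ± 1.25 RPM. That last value rests on 5 to 10 reads per rpa49△ library.

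**Figure D2:**
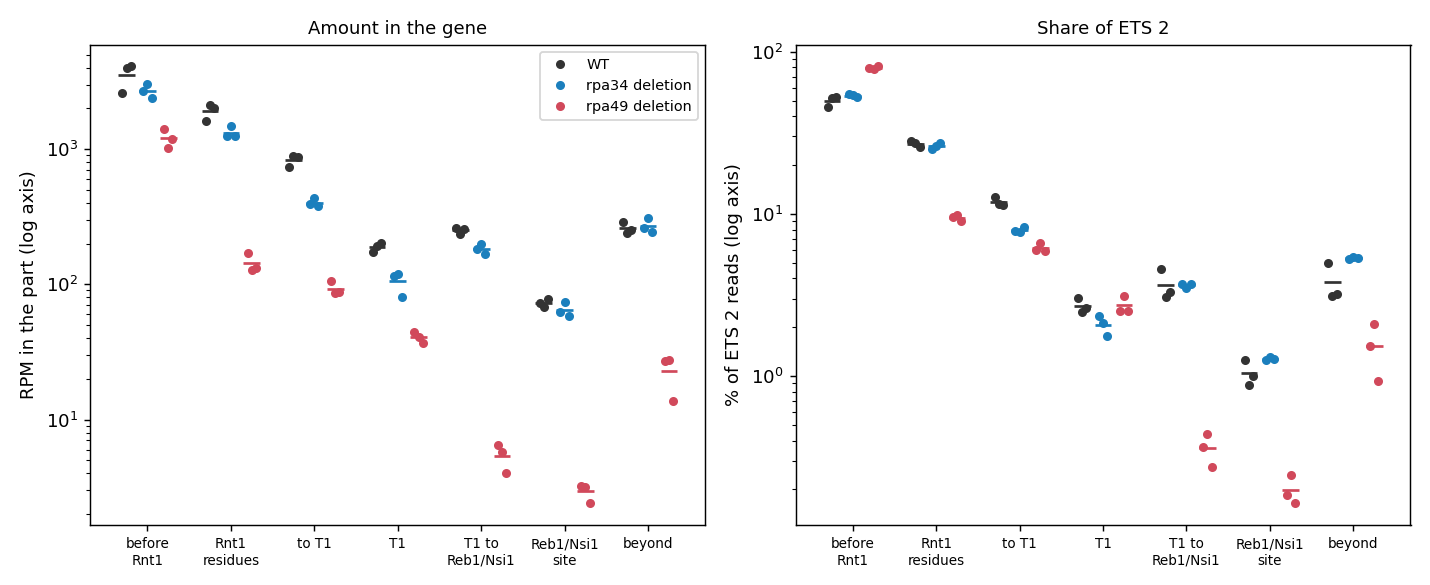
RPM (left) and percent of ETS 2 reads (right) in each of the 7 stretches, both on log axes, with 1 point per library and a bar at the mean of the 3 libraries of WT, rpa34△ and rpa49△. The share at T1 is level between WT and rpa49△ (2.71% and 2.73%), while the stretches on either side are lower in rpa49△.

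The largest difference between rpa34△ and WT in shares of ETS 2 reads lay between the Rnt1 residues and T1. Reads between the Rnt1 residues and T1 made up 11.8% ± 0.738 in WT and 7.96% ± 0.311 in rpa34△, and reads at T1 2.71% ± 0.276 and 2.07% ± 0.282. The Reb1/Nsi1 site held 1.05% ± 0.189 in WT and 1.28% ± 0.0326 in rpa34△, and the stretch beyond it 3.78% ± 1.05 and 5.35% ± 0.10. In these 4 of 7 stretches the libraries of WT and rpa34△ did not overlap, each with a two-sided exact permutation p = 0.1, the smallest that 3 libraries against 3 allow (0.175 adjusted over the 7). As background, 52% of all 10-nucleotide windows of the gene had shares of their own region that did not overlap in this comparison, which is close to 4 of 7. The share past T1 as a whole was 10.3% ± 0.0577 in rpa34△ and overlapped WT (exact permutation p = 0.4), because WT replicate 1 lay above all rpa34△ libraries. Without WT replicate 1 the difference was 2.97 percentage points instead of 1.80.

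Shares in rpa49△ moved towards the start of ETS 2. The 15 positions before the Rnt1 residues held 79.8%, 77.7% and 81.1% of ETS 2 reads in rpa49△, against 45.4%, 51.6% and 52.7% in WT and 54.5%, 53.8% and 52.4% in rpa34△. All rpa49△ libraries were above all others. The Rnt1 residues held 9.49% ± 0.371 against 27.1% ± 1.12 in WT, and the stretch on to T1 6.17% ± 0.371 against 11.8% ± 0.738. Among the 7 stretches T1, a single base, was the exception, at 2.73% ± 0.346 against 2.71% ± 0.276 in WT (exact permutation p = 0.8). With the first 10 positions of ETS 2 left out of the total, the T1 share was 0.788 percentage points higher in rpa49△, and the libraries did not overlap. In 6 of the 7 stretches rpa49△ and WT did not overlap (exact permutation p = 0.1 each, 0.117 adjusted), with a background of 63.7% of windows. Between rpa49△ and rpa34△ the libraries overlapped in 0 of the 7 stretches (exact permutation p = 0.1 each, 0.1 adjusted), with a background of 49.5%, and there T1 was on the other side, with a higher share in rpa49△ (2.73% against 2.07%). Without the first 10 positions, the stretch from the Rnt1 residues to T1 overlapped between the deletions, and its difference went from -1.79 to -0.635 percentage points.

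**Figure D3:**
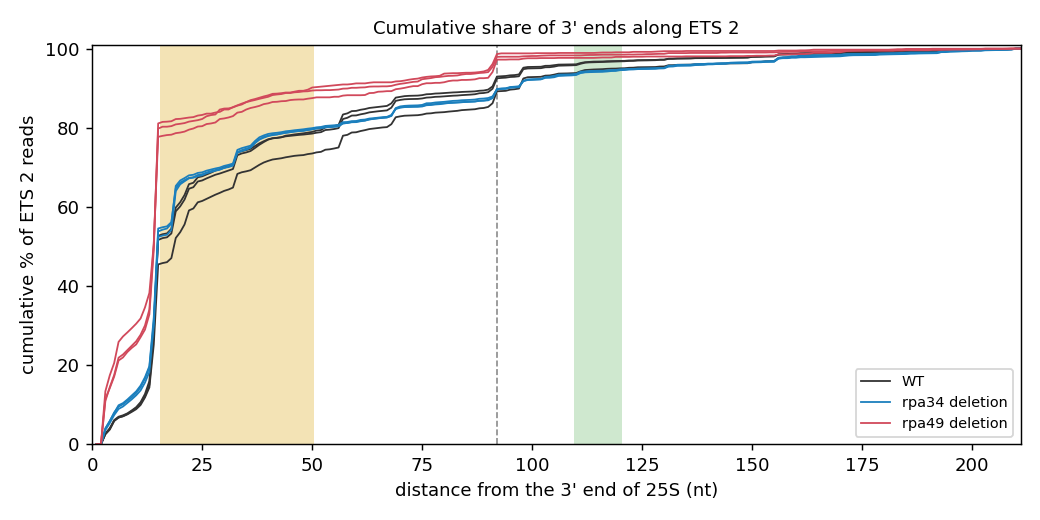
Cumulative percent of ETS 2 reads by distance from the 3′ end of 25S in nucleotides, 1 line per library, with the Rnt1 residues in ochre, T1 as a dashed line and the Reb1/Nsi1 site in green. The rpa49△ lines reach 77.7% to 81.1% before the Rnt1 residues, and WT replicate 1 is the lowest line up to T1.

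Single positions were compared on a pair of scales. On the gene scale each library was set to 1000000 reads over the gene. On the region scale each annotated region of a library was set to its mean total, so that a position is compared as a share of ETS 2. Positions whose mean reached 10 RPM were tested on log2(RPM + 10) with limma over the whole gene, and a position is called past the threshold at an adjusted p under 0.05; log2 changes on this scale understate those of low positions.

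On the gene scale, rpa34△ had lower reads at most ETS 2 positions that could be tested. Of 69 positions, 39 fell, against a background of 23.4% of 6425 positions in the gene, and 1 rose, against 19.8%. Their median log2 change was -0.40, beside 0.01 over all positions. All 69 had a mean of 10 RPM in WT and 60 of them in rpa34△, so 9 were tested through their WT level. This direction depended on the scaling: with libraries scaled on the reads of the 4 spacers, 26 ETS 2 positions rose and 14 fell. That scaling moved the median of all positions to 0.66 and that of ETS 2 to 0.17, so ETS 2 stayed below the gene. No background share is given for counts under that scaling. Compared as shares of ETS 2 on the region scale, 20 of 69 positions fell (background 21.9%) and 18 rose (19.1%), with a median of -0.02 beside 0.00 over all positions. Before the Rnt1 residues 7 of 13 tested positions rose and 0 fell. In the Rnt1 residues 4 of 29 rose and 9 fell, and on to T1 2 of 15 rose and 8 fell.

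The largest differences in rpa34△ were at a few single bases, in the annotated Rnt1 residues and at 6704 past them. Position 6669, a G on the 5′ arm, held 203, 210 and 212 RPM in WT and 27.9, 38.9 and 33.9 RPM in rpa34△. The groups lay far apart, with a 6.21-fold lower mean, and the position fell by 2.33 on the log2 gene scale (SE 0.107, limma adjusted p = 2.11e-09) and by 1.93 on the region scale (SE 0.116, limma adjusted p = 7.68e-09). Its neighbours 6668 and 6671 fell by 1.67 and 1.74 on the gene scale, from 130 ± 15.0 to 33.9 ± 2.30 RPM and from 102 ± 11.3 to 23.8 ± 5.45 RPM. Position 6666, 3 bases upstream of 6669, went the other way. It held 293, 430 and 415 RPM in WT and 424, 535 and 449 RPM in rpa34△, so the groups overlapped on the gene scale, at 0.31 on the log2 gene scale (SE 0.131, limma adjusted p = 0.0692). As a share of ETS 2 it rose from 5.35% ± 0.253 to 9.29% ± 0.651 (log2 change on the region scale 0.78, SE 0.0829, limma adjusted p = 3.32e-06). Within each library, reads at 6666 were 1.44 to 2.05 times those at 6669 in WT and 13.3 to 15.2 times in rpa34△. The bases around these positions are shown with the 3′ end base in capitals, 6666 being a U and 6668, 6669 and 6671 a G, a G and an A.
6656 to 6676, U at 6666: ucuuucuaagUggguacuggc
6659 to 6679, G at 6669: uucuaaguggGuacuggcagg

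A second pair of neighbouring peaks, past the Rnt1 residues, changed in the same unequal way in rpa34△. Position 6704, a G on the 3′ side of the predicted stem, held 171, 203 and 179 RPM in WT and 33.1, 38.3 and 33.9 RPM in rpa34△. It fell by 2.11 on the log2 gene scale (SE 0.102, limma adjusted p = 3.30e-09), and its mean was 5.25-fold lower. Position 6716, an A just past the loop of the smaller hairpin, held 102, 112 and 134 RPM in WT and 90.0, 85.0 and 91.5 RPM in rpa34△, which was 1.30-fold lower on the mean and did not overlap. Hence 6704 was above 6716 in every WT library, 1.33 to 1.81 times, and below it in every rpa34△ library, at 0.368 to 0.451 times. Position 6700 fell by 1.27 on the gene scale.
6694 to 6714, G at 6704: uuagagagaaGuagacugaac
6706 to 6726, A at 6716: agacugaacaAgucucuauaa

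As a share of ETS 2, the main pile-up changed little in rpa34△. Position 6662 held 1112, 1341 and 984 RPM in rpa34△, which overlapped WT at the edge. It fell by 0.46 on the gene scale (SE 0.169, limma adjusted p = 0.0424), a call that ended under 6 alternatives (limma adjusted p up to 0.157) and that turned to 0.25 with scaling on spacer reads. Its log2 change on the region scale was 0.01 (limma adjusted p = 0.929). The AGGA loop base 6680 was at 199, 268 and 238 RPM in WT and 150, 195 and 157 RPM in rpa34△, lower on the gene scale (log2 change -0.47, limma adjusted p = 0.00539, turning to 0.21 with scaling on spacer reads) and at -0.02 on the region scale (limma adjusted p = 0.898). The first bases of ETS 2 rose as shares. Position 6653, an A, went from 47.7, 66.3 and 67.1 RPM to 96.4, 87.5 and 68.0 RPM and was the single riser on the gene scale (log2 change 0.42, SE 0.140, limma adjusted p = 0.0280), a call that ended under 5 alternatives, with limma adjusted p up to 0.140. As a share of ETS 2 it rose by 0.84, with 6650 and 6655 at 0.54 and 0.66.

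At T1 itself rpa34△ was lower than WT, and positions past it moved both ways as shares of ETS 2. T1 held 115, 119 and 81.1 RPM against 174, 191 and 204 in WT. The groups did not overlap, and T1 fell by 0.81 on the gene scale (SE 0.123, limma adjusted p = 0.00017) and by 0.36 on the region scale (SE 0.104, limma adjusted p = 0.0116). With scaling on spacer reads its log2 change was -0.14 (limma adjusted p = 0.402), and without rpa34△ replicate 3 the region-scale call ended (limma adjusted p = 0.0503). Of 11 positions tested past T1, 0 rose (background 19.8%) and 3 fell (23.4%) on the gene scale. On the region scale 5 of the 11 rose (background 19.1%) and 2 fell (21.9%). The largest rises were at 6750 and 6778, by 0.62 and 0.59 (limma adjusted p = 0.00147 and 0.000867), from 17.5 ± 0.568 to 24.0 ± 4.15 RPM and from 18.1 ± 0.594 to 24.1 ± 3.54 RPM. Position 6745, 6 bases past T1, was the highest past the terminator, at 147, 131 and 139 RPM in WT and 68.9, 78.9 and 73.9 RPM in rpa34△. As a share of ETS 2 it fell by 0.40 on the region scale (SE 0.125, limma adjusted p = 0.0196). Of the windows of 10 nucleotides, 8 of 21 tested passed the threshold on the region scale, close to the background of 39.9%, and 5 passed without rpa34△ replicate 3. Of the 8, 3 fell, those starting at 6668, 6698 and 6738, and 5 rose, those starting at 6648, 6748, 6778, 6788 and 6848.

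**Figure D4:**
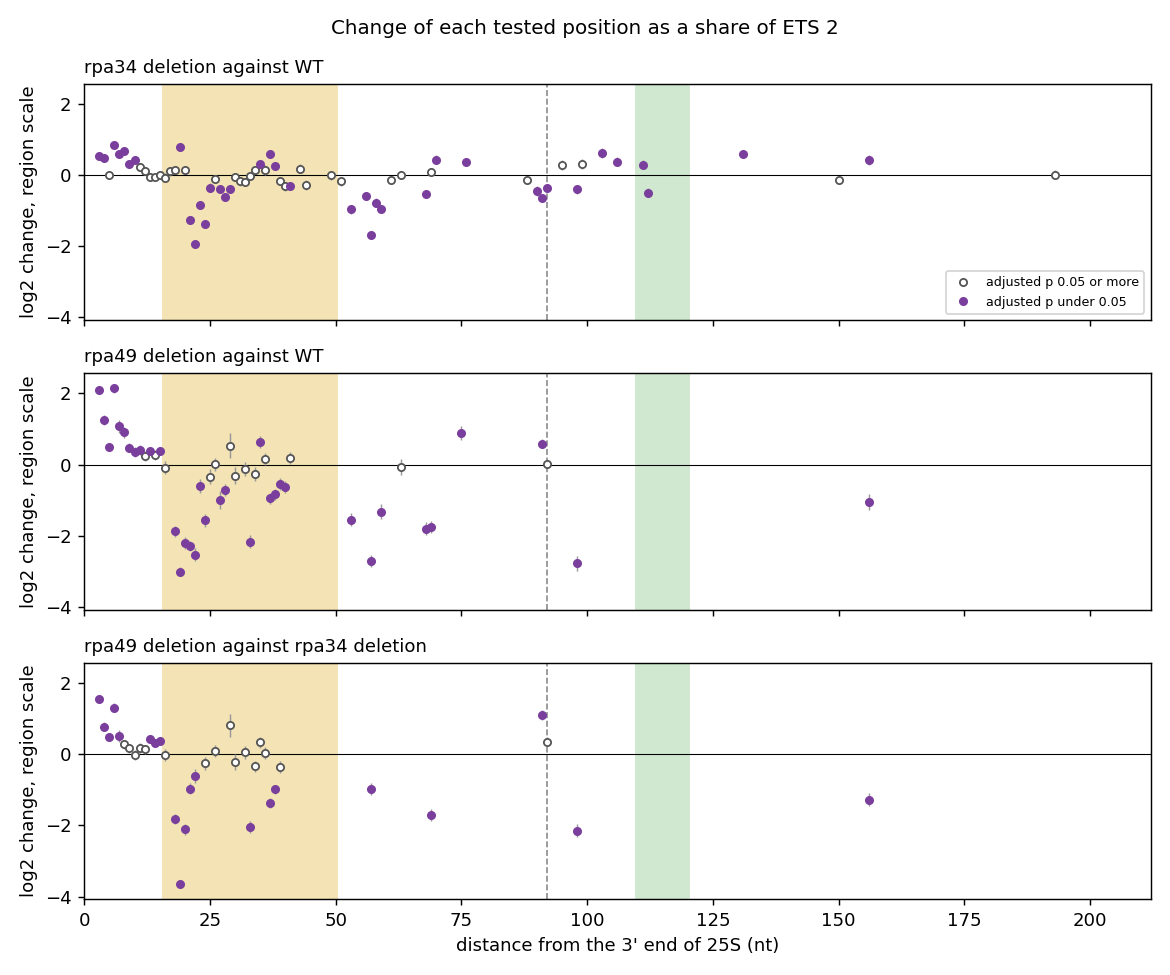
Log2 change on the region scale, with bars of 1 SE, of every ETS 2 position with a mean of at least 10 RPM, by distance from the 3′ end of 25S in nucleotides, in the 3 comparisons; filled points passed an adjusted p under 0.05, the ochre band marks the Rnt1 residues, the dashed line T1 and the green band the Reb1/Nsi1 site. Points left of the band lie at or above 0 in rpa49△ against WT, and the point at 19 nucleotides (position 6666) lies at 0.78 in rpa34△ and at -3.01 in rpa49△.

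In rpa49△, every ETS 2 position past the threshold on the gene scale was lower than in WT. Of 53 tested positions 51 fell (background 30.5%) and 0 rose (27.1%), with a median log2 change of -1.58 beside 0.01 over all positions. In rpa49△ 16 of the 53 had a mean of 10 RPM, against all 53 in WT, so the other 37 were tested through their WT level and the count is a description. Scaled on spacer reads, 23 of 47 fell and 6 rose. The median of all positions was then 1.74 and that of ETS 2 -0.32. As shares of ETS 2 (region scale), 21 of 48 fell (background 27.4%) and 14 rose (20.9%), with a median of -0.19 beside -0.03. Before region scaling, 16 of these 48 had a mean of 10 RPM in rpa49△ and 47 in WT, so this count is a description as well. The risers lay at the start: 11 of 13 tested positions before the Rnt1 residues rose and 0 fell. Of 24 in the Rnt1 residues 1 rose and 14 fell, and of 8 on to T1 2 rose and 5 fell.

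The peaks inside the annotated Rnt1 residues were nearly absent from rpa49△. Position 6666 held 7.76, 5.10 and 8.05 RPM in rpa49△ (12, 8 and 10 reads) against 293 to 430 in WT, a 54.4-fold lower mean. It fell by 4.51 on the log2 gene scale (SE 0.152, limma adjusted p = 1.42e-14) and by 3.01 on the region scale. The loop base 6680 held 7.76, 11.5 and 6.44 RPM, 27.5-fold below WT, and fell by 3.72 and 2.16 on the gene and region scales. Positions 6669 and 6704 fell by 3.87 and 3.89 on the gene scale, with means of 5.09 ± 2.31 and 3.10 ± 1.29 RPM. On that scale 6666, 6680, 6669 and 6704 had rpa49△ means under 10 RPM. They were tested through their WT level, so their p-values are a description. Within the Rnt1 residues the highest rpa49△ mean was instead at 6676, chosen after its values were seen, with 22, 11.5 and 2.42 RPM against 24.1 to 26.3 in WT. These libraries spread widely and rest on few reads.

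Position 6662 remained the highest of ETS 2 in rpa49△, at 513, 353 and 469 RPM. It lay below every WT library and fell by 1.81 on the gene scale (SE 0.167, limma adjusted p = 2.47e-08), although with scaling on spacer reads its log2 change was 0.05. As a share of ETS 2 it went from 22.4% ± 2.28 to 29.4% ± 2.47 (region scale 0.39, limma adjusted p = 0.0164), a call lost when WT replicate 1, WT replicate 2 or rpa49△ replicate 3 was left out (limma adjusted p up to 0.0605). The share of 6661 did not pass the threshold (region scale 0.27, limma adjusted p = 0.0981). Together the 2 positions held 39.5% to 48.3% of ETS 2 reads.

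The position with reads nearest to 25S did not pass the threshold in rpa49△ on the gene scale. Position 6650, a U 3 bases past the 3′ end of 25S, held 150, 209 and 194 RPM in WT, 196, 202 and 184 in rpa34△ and 193, 175 and 168 in rpa49△. All 3 strains overlapped, and the log2 gene-scale change in rpa49△ was -0.03 (SE 0.123, limma adjusted p = 0.841). With scaling on spacer reads it was 1.76 (limma adjusted p = 3.54e-24). As a share of ETS 2 it rose from 2.61% ± 0.105 in WT to 11.9% ± 1.29 in rpa49△ (region scale 2.10, SE 0.105, limma adjusted p = 1.31e-09). Position 6653 behaved alike, with 76.9, 69.5 and 59.6 RPM in rpa49△ and a region-scale rise of 2.14, followed by 6651, 6654 and 6655 with rises of 1.26, 1.08 and 0.91. The first 10 positions of ETS 2 held 8.86% to 9.36% of its reads in WT, 12.4% to 13.4% in rpa34△ and 25.2% to 30.5% in rpa49△. Whether 3′ ends of processed 25S RNA add to these positions was not tested.
6640 to 6660, U at 6650: ugauuuguuuUuuauuucuuu
6643 to 6663, A at 6653: uuuguuuuuuAuuucuuucua

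At T1 the shares of ETS 2 in rpa49△ and WT overlapped, unless the first 10 positions were left out, while the stretches on both sides held smaller shares in rpa49△. T1 held 44.6, 40.8 and 37.0 RPM (69, 64 and 46 reads), below every WT library, and fell by 1.97 on the gene scale (SE 0.124, limma adjusted p = 9.78e-11). With scaling on spacer reads the log2 change was -0.31 (limma adjusted p = 0.0969). The log2 change on the region scale was 0.01 (SE 0.120, limma adjusted p = 0.962). T1 was not alone among single positions: 6682 and 6722 rose by 0.63 and 0.90 on that scale (limma adjusted p = 0.00769 and 0.002). In their stretches 14 of 24 and 5 of 8 tested positions fell. The base before T1, 6738, held 23.3, 19.1 and 21.7 RPM in rpa49△ and 25.4 ± 6.14 in rpa34△, against 61.4 ± 7.53 in WT. As a share of ETS 2 it rose in rpa49△ (log2 change on the region scale 0.58, SE 0.127, limma adjusted p = 0.00175). Among the reads that lay after position 6662, T1 with the base before it took 7.15% ± 0.309 in WT, 5.55% ± 0.885 in rpa34△ and 20.3% ± 1.12 in rpa49△. This denominator was chosen after the data were seen. On it the stretch from the Rnt1 residues to T1, which includes 6738, was also higher in rpa49△ (30.2% ± 1.04 against 23.7% ± 0.363 in WT). The Rnt1 residues were lower (46.5% ± 2.26 against 54.1% ± 2.56), as was the stretch from T1 to the Reb1/Nsi1 site (1.75% ± 0.267 against 7.22% ± 1.03). Beyond that site the libraries overlapped (7.33% ± 2.26 against 7.47% ± 1.46).
6729 to 6749, U at 6739 (T1): uuuauuugucUuaagaauucu
6735 to 6755, A at 6745: ugucuuaagaAuucuaugauc

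Past T1, reads in rpa49△ dropped nearly to nothing. The 119 positions held 57, 57 and 25 reads per rpa49△ library, or 36.8, 36.3 and 20.1 RPM, against 622, 544 and 582 RPM in WT and 505, 580 and 472 RPM in rpa34△. The rpa49△ mean of 31.1 ± 9.51 RPM was 18.7-fold below WT. As a share of ETS 2 it was 2.09% (interval 1.59% to 2.70%), 2.79% (2.12% to 3.60%) and 1.37% (0.891% to 2.02%), below all WT libraries, a difference of -6.38 percentage points (exact permutation p = 0.1). Position 6745 held 1.94, 2.55 and 0 RPM in rpa49△, where the absence of reads in replicate 3 allows up to 2.42 RPM (3 reads, counting error only). It fell by 3.70 on the gene scale (SE 0.144, limma adjusted p = 9.74e-14) and by 2.77 on the region scale. Reads at 6745 were 0.683 to 0.845 times those at T1 in WT, 0.598 to 0.912 times in rpa34△ and at most 0.0625 times in rpa49△. Of the 91 positions beyond the Reb1/Nsi1 site, 14 to 30 had a read in an rpa49△ library and 87 to 90 in a WT library. Of 18 windows tested on the region scale 12 passed the threshold, beside a background of 59.9%. Those starting at 6648 and 6718 rose, and 10 fell, 5 of them starting past T1, at 6748, 6758, 6778, 6798 and 6838. Before region scaling the rpa49△ means of these 5 were 1.56 to 3.53 RPM, under the minimum of 10, so their fall is a description.

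**Figure D5:**
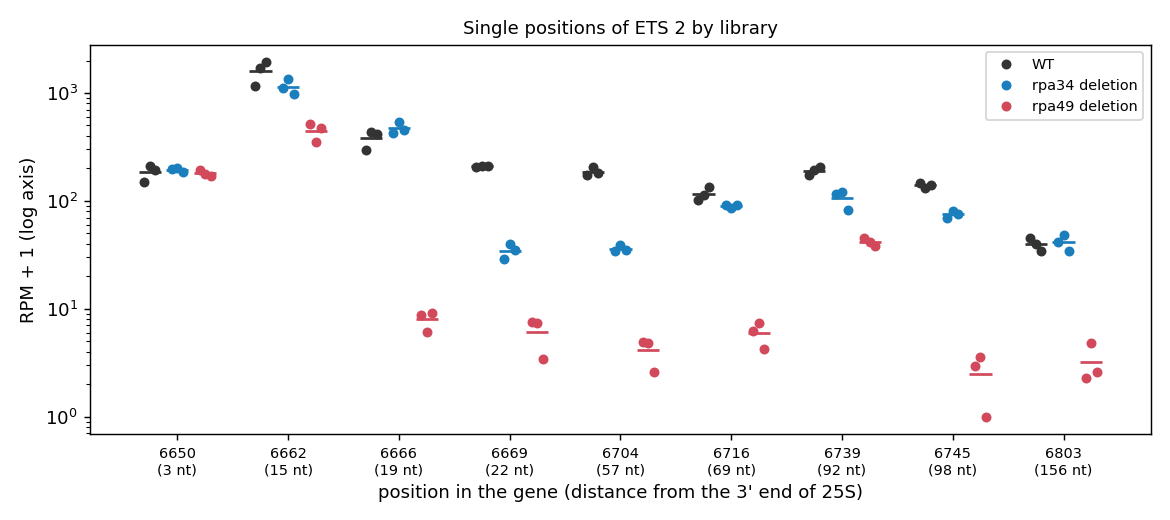
RPM + 1 on a log axis at 9 single positions of ETS 2, with 1 point per library and a bar at the mean for WT, rpa34△ and rpa49△; the distance from the 3′ end of 25S is given under each position. The strains overlap at 6650, and rpa34△ drops at 6669 and 6704 but not at 6666. Among the positions shown, rpa49△ is below 10 RPM from 6666 to 6716 and past T1 but at 37.0 to 44.6 RPM at T1 (6739).

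Set directly against each other, the deletions differed most at 6666 among the tested positions, as a difference of log2(RPM + 10). That position had not passed the threshold in rpa34△ against WT on the gene scale. Of 43 positions tested on the gene scale 39 were lower in rpa49△ than in rpa34△ (background 19.5%) and 0 higher (10.9%), with a median log2 difference of -1.22 beside 0.00 over all positions. All 43 had a mean of 10 RPM in rpa34△ and 16 in rpa49△, so this count is a description too. Scaled on spacer reads, 18 of 37 were lower and 3 higher. The median of all positions was then 1.07 and that of ETS 2 -0.31. On the region scale 12 of 37 were lower (background 16.2%) and 9 higher (9.75%), and 11 of 17 windows passed (37.4%). Before region scaling, all 37 positions had a mean of 10 RPM in rpa34△ and 16 in rpa49△, so the position count is a description as well. Position 6666 was 67.4-fold lower in rpa49△, with a log2 difference of -4.82 on the gene scale (SE 0.129, limma adjusted p = 3.41e-12) and -3.65 on the region scale (limma adjusted p = 3.60e-10). By the fold of means, some low positions past T1 were further apart, such as 6750 at 111-fold (24.0 RPM in rpa34△, 0.215 in rpa49△). At 6669, already low in rpa34△, the differences were -1.53 and -0.62, and the second was lost when 1 of 4 libraries was left out, with limma adjusted p up to 0.108. The difference at 6667 was -2.87 on the gene scale, that at 6716 -2.73 and that at 6745 -2.87. On that scale 6666, 6667, 6669, 6716 and 6745 had rpa49△ means under 10 RPM and were tested through their rpa34△ level. On the region scale the highest rises in rpa49△ were at 6650 (1.55), 6653 (1.31) and 6738 (1.11, SE 0.136, limma adjusted p = 4.11e-05), the base before T1. T1 itself had a region-scale difference of 0.35 that did not pass (limma adjusted p = 0.0623).

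The base at the 3′ end of the reads also differed between the strains. U made up 37.4% of ETS 2 positions and took 48.4% ± 2.11 of ETS 2 reads in WT, 54.6% ± 0.557 in rpa34△ and 65.9% ± 0.931 in rpa49△. G made up 20.4% of positions and took 17.2% ± 1.32, 12.1% ± 0.404 and 4.40% ± 0.461. The 3 strains did not overlap for either base, and the first 15 positions, where most rpa49△ reads lay, hold 12 U and 0 G. For A and C the WT and rpa34△ libraries overlapped. A took 18.1% ± 1.90 in WT, 17.8% ± 0.140 in rpa34△ and 9.33% ± 1.11 in rpa49△, and C 16.3% ± 1.26, 15.4% ± 0.626 and 20.4% ± 2.29. Within the Rnt1 residues alone, G took 45.4% ± 1.17 of reads in WT and 34.3% ± 0.779 in rpa34△, and U 25.1% ± 1.25 and 40.1% ± 1.07. Position 6666, described above, is among these U, and 6668 and 6669 are among these G. In rpa49△, with 165 to 262 reads per library there, G took 36.6% ± 3.68 and U 17.2% ± 1.80, both below WT. C went the other way, from 6.15% ± 0.269 in WT to 24.5% ± 6.57 in rpa49△, and A overlapped WT. Position 6676 is among these C. Past T1 the reads favoured A, which made up 35.3% of positions and took 66.5% ± 0.916 of reads in WT and 65.0% ± 1.08 in rpa34△. In rpa49△ A took 46.5% ± 9.14 there, on 25 to 57 reads per library. Of the 10 highest positions past T1, 6 were A in WT and 7 in rpa34△.

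Compared with the other spacers of the gene, ETS 2 lost a larger share of its reads in rpa49△ than ITS 2 did. The log2 ratio of ETS 2 to ITS 2 reads was -0.95, -0.70 and -0.77 in WT, -0.97, -0.91 and -1.05 in rpa34△ and -1.88, -2.08 and -1.88 in rpa49△. The rpa49△ libraries lay below all others, at -1.14 from WT on the mean (exact permutation p = 0.1, 0.3 adjusted over the 3 spacers). Against ETS 1 and ITS 1 the rpa49△ ratios overlapped WT, with differences of -0.18 and -0.27 (exact permutation p = 0.6 and 0.3). Against rpa34△ the ratio of ETS 2 was lower in rpa49△ over all 3 spacers, by -0.56 for ETS 1, -0.46 for ITS 1 and -0.97 for ITS 2 (exact permutation p = 0.1 each, 0.1 adjusted). In rpa34△ the ratio of ETS 2 to ETS 1 was above WT by 0.39 with no overlap (exact permutation p = 0.1, 0.3 adjusted), and those to ITS 1 and ITS 2 differed by 0.19 and -0.17 with overlap (exact permutation p = 0.3 and 0.2). Without the first 10 positions of ETS 2, all 3 ratios separated rpa49△ from WT, at -0.50 for ETS 1, -0.59 for ITS 1 and -1.47 for ITS 2, whereas the rpa34△ ratio to ETS 1 was 0.32 and overlapped WT.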

How the data were processed

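Pol I NET-seq values came from 2 tables, which hold a row for each nucleotide of the 35S gene. There is 1 table for each deletion, and both repeat the WT columns. The authors deposited RPM per replicate: a column sums to 1000000 up to T1, and its values past T1 carry that factor. Per the submitters' processing notes, the tools were STAR 2.7.1a with build R64, R 4.0.2, bedtools 2.28.0, cutadapt 3.4, SAMtools 1.6 and bcl2fastq 2.20.00. The sources used here do not give whether reads sharing a molecular identifier were counted once, nor how reads were placed between the gene copies RDN37-1 and RDN37-2. The deposited ratios and p-values were not used.

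For the gene scale, columns were rescaled to 1000000 over all positions of the gene. Whole reads were recovered within a tolerance of 0.01 read at 99.956% or more of the values of each library. Sub-parts follow the feature annotation. Single positions whose mean in the compared libraries reached 10 RPM, and windows of 10 nucleotides, were fitted as log2(RPM + 10) by limma 3.58.1 in R 4.3.3, using lmFit and eBayes with a variance trend. Each fit took 3 libraries against 3, with Benjamini-Hochberg adjustment over the whole gene and a threshold of 0.05; the method was tested on simulated data. Every p-value and adjusted p of a single position is from limma. Values with 1 number per library went into exact permutation tests, two-sided (10 splits, smallest p 0.1). Named positions were the 10 highest by the mean of the group means and, per comparison and scale, up to 5 of the largest rises and falls past the threshold; positions 6716, 6738 and 6745, where named outside that rule, were chosen after their values were seen. Members, sub-parts and lists were chosen with earlier results of these data known.

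Same-numbered libraries of different strains did not deviate together (9 pairs, r from -0.2846 to 0.2525, 1 of them over 0.1), so numbers were not used as pairs. Replicates were not identical: the chi-square over degrees of freedom between libraries of a strain was 1.28 or more. Alternatives were other pseudocounts, minimums, window sizes and scalings, no variance trend, edgeR 4.0.16 (quasi-likelihood test) on the recovered reads, a replicate block, and leaving out libraries or peaks. edgeR called 40, 51 and 39 positions on the gene scale for rpa34△ against WT, rpa49△ against WT and rpa49△ against rpa34△, and 38, 35 and 22 on the region scale. Other tools were RNAfold 2.7.2, pandas 2.3.3, scipy 1.17.1, numpy 2.4.6, matplotlib 3.10.9 and Python 3.11.15.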

Additional observations from a re-analysis of the deposited data

How the results depend on the processing

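Counts of positions past the threshold depended mainly on how many positions were tested. For rpa34△ against WT, rpa49△ against WT and rpa49△ against rpa34△, no minimum gave 64, 140 and 121 on the gene scale and 60, 69 and 56 on the region scale, with 209 tested, and a minimum of 50 RPM gave 15, 16 and 9, and 12, 11 and 8. For windows that minimum gave 5, 7 and 3, and windows of 5 nucleotides gave 16 for rpa34△ against WT and 18 for rpa49△ against rpa34△. Scaling on spacer reads gave 29 for rpa49△ against WT and 21 for rpa49△ against rpa34△. It also turned the gene-scale log2 change of 11 named positions. For rpa34△ against WT these were 6662 (0.25), 6661 (0.18), 6680 (0.21), 6660 (0.18), 6652 (0.21) and 6659 (0.33); for rpa49△ against WT 6662 (0.046), 6650 (1.76), 6660 (0.069) and 6652 (0.18); and for rpa49△ against rpa34△ 6650 (0.99). Of these, only both values of 6650 passed the threshold. The share past T1 without the 3 highest ETS 2 positions differed by 4.20, -10.3 and -14.5 percentage points in the 3 comparisons, and without the first 10 positions by -8.90 for rpa49△ against rpa34△. ETS 2 separated rpa49△ from WT over 3 spacers in place of 1 when either set of positions was left out. Removing positions from ETS 2 changes these shares by construction; the cause of the other differences was not tested.

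With 1 library left out at a time, gene-scale counts were 32 to 43, 44 to 59 and 33 to 42, region-scale counts 27 to 36, 29 to 40 and 17 to 29, and window counts 5 to 12, 10 to 14 and 9 to 14. Of the window counts, 5 for rpa34△ against WT came without rpa34△ replicate 3. Stretches that did not overlap numbered 4 to 6, 6 and 7, and spacers over which ETS 2 separated 1 to 2, 1 to 2 and 3. The difference past T1 was 1.11 to 2.97, -7.07 to -5.21 and -8.53 to -7.83 percentage points. ETS 2 separated over 2 spacers in place of 1 without WT replicate 1 in both comparisons with WT, and for rpa34△ also without rpa34△ replicate 2 or 3. Some log2 changes near 0 took both signs, with no turned value past the threshold: for rpa34△ against WT, 6650 on the gene scale (-0.051 to 0.18) and on the region scale 6662 (-0.056 to 0.088), 6661 (-0.15 to 0.0052), 6680 (-0.071 to 0.043), 6660 (-0.14 to 0.035) and 6652 (-0.043 to 0.018), and for rpa49△ against WT, 6650 on the gene scale (-0.17 to 0.061) and T1, position 6739, on the region scale (-0.087 to 0.082). With the replicate number as a block, 39, 51 and 39 positions passed on the gene scale, 35, 34 and 23 on the region scale and 6, 12 and 11 windows. Among 92 results on named positions, the block kept 88 on their side of the threshold, added 2 calls and ended 2. Across the alternatives that leave out no library, 778 values of single results stayed the same. That means the same direction and side of the threshold, or a move of less than the spread. Another 19 lost a call, 4 gained one, 11 turned and 33 shares or ratios moved by more than the spread. With 1 library left out, 671 values stayed the same, 39 lost a call, 5 gained one and 17 turned. Depth limits rpa49△ most: past T1 it had 25 to 57 reads per library, so single positions there, apart from 6745 and 6803, were not tested on the region scale.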
